A study of Mus musculus with 4 samples.

Results

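The genes of the G2/M transition and of mitosis were followed in sorted mouse bone marrow progenitors that lacked Aspp1, p53 or both. The list holds 45 genes out of 23003 genes or transcripts measured. They were chosen by name for their known role in cell division, but with earlier results of these data known. Each was read from its brightest array probe, and all 45 were well above background on all 4 arrays. The cells were lineage(-) Sca-1(+) cKit(+) (LSK) cells, a mixture of blood stem cells and early multipotent progenitors, from male C57BL/6 mice aged 12 weeks. WT mice, Aspp1-/- mice, Mx1-Cre(+)p53flox/flox mice (called p53-/- after deletion) and Mx1-Cre(+)Aspp1-/-p53flox/flox mice (called Aspp1-/-p53-/-) were compared. Mice of all 4 genotypes, WT included, had received pIpC 5 times every other day from 8 weeks of age, and cells were taken 4 weeks after that treatment. The design states 400 μg of pIpC for every genotype, whereas the sample labels read 400 μg for WT, 401 μg for Aspp1-/-, 402 μg for p53-/- and 403 μg for Aspp1-/-p53-/-. Mx1-Cre is a recombinase under an interferon-responsive promoter, so p53 was deleted in the adult and in other interferon-responsive cells as well, while the Aspp1-/- allele is given without a Cre. Each genotype is 1 array, read in 1 colour (Cy3), of RNA pooled from 3 mice, so there is no spread between replicates and no test between 2 arrays.

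Entry into mitosis is driven by the kinase Cdk1 bound to a B-type cyclin, which CDC25 phosphatases activate, and Polo-like and Aurora kinases then build the spindle. The spindle checkpoint holds the anaphase-promoting complex (APC/C) until every chromosome is attached. APC/C with Cdc20 then marks securin and cyclin B for destruction, which frees separase to part the sister chromatids. Most of these genes are transcribed together in G2 through a promoter element called the CHR, often with CCAAT boxes bound by NF-Y. The B-Myb and FoxM1 factors act on them in cycling cells, and p53 lowers them indirectly, through p21 (Cdkn1a) and the DREAM complex, which sits on the same element. Most long-term stem cells in adult marrow are quiescent, whereas multipotent progenitors divide often, so the RNA of these genes in LSK cells reflects the dividing part of the population. In bulk samples such as these, fewer dividing cells and less RNA per cell cannot be told apart.

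The shared promoter elements can be read in the start-site windows of the genes. Of these, 6 are printed here as cases with both motifs, with CCAAT boxes alone and with neither. None of the 6 shows a CHR without a CCAAT box. RefSeq windows (GRCm38.p6) of 300 bases, 250 before to 50 after the annotated start, were found for 39 of the 45 genes, some with more than 1 start, which gave 42 windows. Each printed stretch has 130 bases, 100 before and 30 after the start, on the gene's own strand from 5′ to 3′. Capitals mark a CHR, searched as TTTGAA or TTCGAA on both strands, or a CCAAT box, searched as CCAAT on both strands, where ATTGG is the reverse. Matches of the 2 motifs were counted separately, and they can share a letter at their ends. All 6 genes lie on the minus strand: Cdk1 at chr10:69352883-69353012, Ccnb2 at chr9:70421525-70421654, Cdc20 at chr4:118437314-118437443, Hmmr at chr11:40733408-40733537, Ccnb1 at chr13:100786457-100786586 and Pttg1 at chr11:43425952-43426081.
Cdk1: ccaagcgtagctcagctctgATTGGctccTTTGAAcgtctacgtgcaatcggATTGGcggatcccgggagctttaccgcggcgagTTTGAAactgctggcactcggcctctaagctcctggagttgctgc
Ccnb2: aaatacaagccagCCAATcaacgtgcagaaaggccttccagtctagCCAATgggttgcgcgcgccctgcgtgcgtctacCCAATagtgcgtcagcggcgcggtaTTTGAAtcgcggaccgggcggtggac
Cdc20: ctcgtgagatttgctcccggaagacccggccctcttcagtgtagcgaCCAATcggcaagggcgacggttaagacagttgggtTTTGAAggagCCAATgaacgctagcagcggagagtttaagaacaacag
Hmmr: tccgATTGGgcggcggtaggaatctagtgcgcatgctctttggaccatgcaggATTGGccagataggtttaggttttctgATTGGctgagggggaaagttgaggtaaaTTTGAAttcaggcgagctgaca
Ccnb1: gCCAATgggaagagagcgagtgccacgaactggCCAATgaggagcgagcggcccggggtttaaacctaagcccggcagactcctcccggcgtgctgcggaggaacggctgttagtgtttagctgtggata
Pttg1: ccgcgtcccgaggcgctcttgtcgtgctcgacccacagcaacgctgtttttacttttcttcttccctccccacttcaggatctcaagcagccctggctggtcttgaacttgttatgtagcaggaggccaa
Cdk1 held 2 CHR and 2 CCAAT matches in this stretch, and Ccnb2, Cdc20 and Hmmr each held 1 CHR downstream of at least 1 CCAAT box. Ccnb1 held 2 CCAAT boxes and no CHR in these letters. Pttg1, the gene with the largest differences between arrays below, held neither motif in its window.

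A CHR was present in the window of 29 of the 39 genes (74.4%), against 21.7% of the 27025 genes with a window of the same length. A CCAAT box was present in 31 of the 39 (79.5%), against 41.1% of all genes, and both motifs in 26 (66.7%), against 8.61%. A canonical E2F site (TTTGGCGC, TTTCGCGC, TTTCCCGC or TTTGCCGC, both strands), typical of genes of the G1/S transition, was present in 3 of the 39 (7.69%), against 2.60% of all genes. Among 28 genes of the G1/S transition and DNA replication the order was the other way, with an E2F site in 42.9% and a CHR in 28.6%. A CCAAT box was present in 67.9% of these 28, so it was not particular to the G2/M and mitosis genes. Of 66 other mitosis genes, outside the list, 66.7% had a CHR, 63.6% a CCAAT box and 48.5% both. Of the 42 CHR matches, 28 lay within 50 bases of the start, and of the 74 CCAAT matches, 56 lay in the 150 bases before it. A match is a description of the letters and not of binding.

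**Figure D1:**
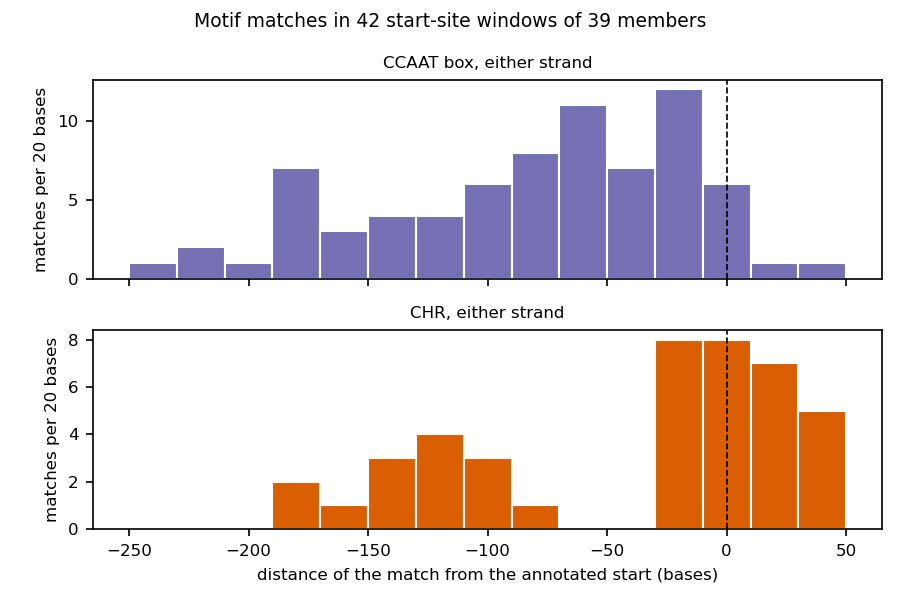
Positions of motif matches relative to the annotated start (x axis, bases; dashed line at the start) in 42 windows of 39 G2/M and mitosis genes, as matches per bin of 20 bases (y axis), for the CCAAT box (upper panel) and the CHR (lower panel) on either strand. The CHR matches gather around the start, with a median position of −16.5, and the CCAAT matches lie further upstream, with a median of −67.5.

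Between 50.4% and 53.3% of probes were well above background, lowest on the Aspp1-/-p53-/- array, and no spot was saturated. WT and Aspp1-/- lay in slide row 1, and p53-/- and Aspp1-/-p53-/- lay in row 2 of the same slide and carried Mx1-Cre. Loss of p53, slide row and Cre therefore cannot be told apart, whereas Aspp1-/-p53-/- and p53-/- share row and Cre. The targeted genes followed the labels: Ppp1r13b, which encodes Aspp1, stood at −2.61 (log2) in Aspp1-/- against WT, and at −2.50 when Aspp1-/-p53-/- was set against p53-/-. Trp53 stood at −2.19 in p53-/- against WT and at −2.13 in Aspp1-/-p53-/- against Aspp1-/-. The deleted exons are not named in the labels, so these probes may lie outside them. All 12 LSK markers, Ly6a and Kit among them, were well above background on every array, with a summed level between 474 and 493 times the 75th percentile signal. Although the sort removed lineage-positive cells, granulocyte genes were also above background on every array (12 of 12, summed level 558, 491, 552 and 443 on the WT, Aspp1-/-, p53-/- and Aspp1-/-p53-/- arrays).

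Levels below are log2 of the processed signal over the array's 75th percentile, and they are compared only within a probe. Differences are log2 differences between 2 arrays. The scanner's own error model gave an error of 0.204 for the difference of a typical member and at most 0.261, which covers the spot and not the mice. The share of all genes past their own scanner error was not computed, so counts of members past it lack that background. A rule of size of log2 1 (2-fold) and a smaller one of log2 0.25 (1.19-fold) were used, without a test.

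Loss of Aspp1 alone left the level of most G2/M and mitosis genes within the scanner error. In Aspp1-/- against WT, 22 of the 45 genes were above 0, where 54.5% of all genes were, and the median was −0.017, against 0.018 for all genes. With arrays scaled on their median these were 0.0052 and 0.040. No member passed log2 1, which 4.24% of all genes did. Pttg1 alone passed log2 0.25, which 24.3% of all genes did, or 17.2% of the genes well above background on all 4 arrays. Pttg1 encodes securin, the inhibitor of separase, and it was 1.37-fold higher. The next highest were Nuf2 at 0.24 and Ncapg at 0.22. Ndc80, Kif23 and Kif4 were lowest, at −0.20, −0.19 and −0.15. The 4 genes Pttg1, Nuf2, Ncapg and Ndc80 differed by more than their own scanner error, and Pttg1 alone by more than 1.96 errors.

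Loss of p53 alone gave the same picture. In p53-/- against WT, 20 of 45 genes were above 0, where 53.4% of all genes were, and the median was −0.0024, against 0.013 for all genes. When arrays were scaled on their median instead, 4 of 45 were above 0 and the median was −0.13, but the median of all genes then moved to −0.11. The members' median less that of all genes was −0.016 under either scaling. No member passed log2 1, which 7.22% of all genes did. Pttg1 alone passed log2 0.25, at 0.26, where 27.8% of all genes and 17.3% of those well above background on all arrays did. Cenpf and Espl1 followed at 0.18 and 0.14, and Cks2, Gtse1 and Cenpe were lowest at −0.16, −0.13 and −0.13. Pttg1 was the only member whose difference was larger than its scanner error, and none exceeded 1.96 errors.

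The genes were slightly higher on the array of cells that lacked both proteins. In Aspp1-/-p53-/- against WT, 33 of 45 were above 0, where 54.1% of all genes were, and the median was 0.098 (7.0% higher), against 0.021 for all genes. Median scaling brought this to 0.038, against −0.039 for all genes, and normexp background correction to 0.070, against 0.028. Again no member passed log2 1, where 8.37% of all genes did, and Pttg1 alone passed log2 0.25, at 0.58 or 1.49-fold, where 36.6% of all genes and 27.1% of those well above background on all arrays did. Plk1 and Nuf2 came next, each at 0.24, and Tpx2, Kif23 and Ndc80 were lowest at −0.14, −0.14 and −0.11. Aurka, Plk1, Pttg1 and Nuf2 differed by more than their scanner error, and Pttg1 by more than 1.96 errors. The shift of the other genes was a shift of many genes by less than the error of any of them, and without Pttg1 the median was still 0.096.

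The pair that shares slide row and Cre gave a like value. In Aspp1-/-p53-/- against p53-/-, 38 of 45 genes were above 0, where 53.1% of all genes were, and the median was 0.11 (7.62% higher), against 0.011 for all genes. Under median scaling 43 of 45 were above 0 and the median was 0.17, with the median of all genes at 0.075. None passed log2 1 (8.05% of all genes) and Pttg1 alone passed log2 0.25, at 0.31, where 25.7% of all genes and 16.3% of those well above background on all arrays did. Gtse1 and Cdk1 were next at 0.19 each. Pttg1 was the only member past its scanner error, and no member exceeded 1.96 errors. The 7 genes below 0 were Cdc25c, Tpx2, Espl1, Cenpa, Cenpf, Ndc80 and Kif23, with Espl1 the lowest at −0.10.

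In Aspp1-/-p53-/- against Aspp1-/-, 38 of 45 genes were again above 0, where 49.6% of all genes were, and the median was 0.10 (7.53% higher), against −0.0016 for all genes. Median scaling brought this to 26 of 45 and 0.022, with the median of all genes at −0.084. No member passed log2 1 (7.56% of all genes) or log2 0.25 (31.1% of all genes, 20.8% of those well above background on all arrays). Mad2l1, Aurkb and Cdc20 were highest at 0.24, 0.24 and 0.23, and Kif11 was lowest at −0.17, followed by Tpx2 and Espl1 at −0.11 and −0.08. The 6 genes Aurkb, Plk1, Mad2l1, Cdc20, Kif2c and Nusap1 differed by more than their scanner error, and no member by more than 1.96 errors. The comparisons against WT, p53-/- and Aspp1-/- share the Aspp1-/-p53-/- array, so they are not separate evidence for its higher values.

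**Figure D2:**
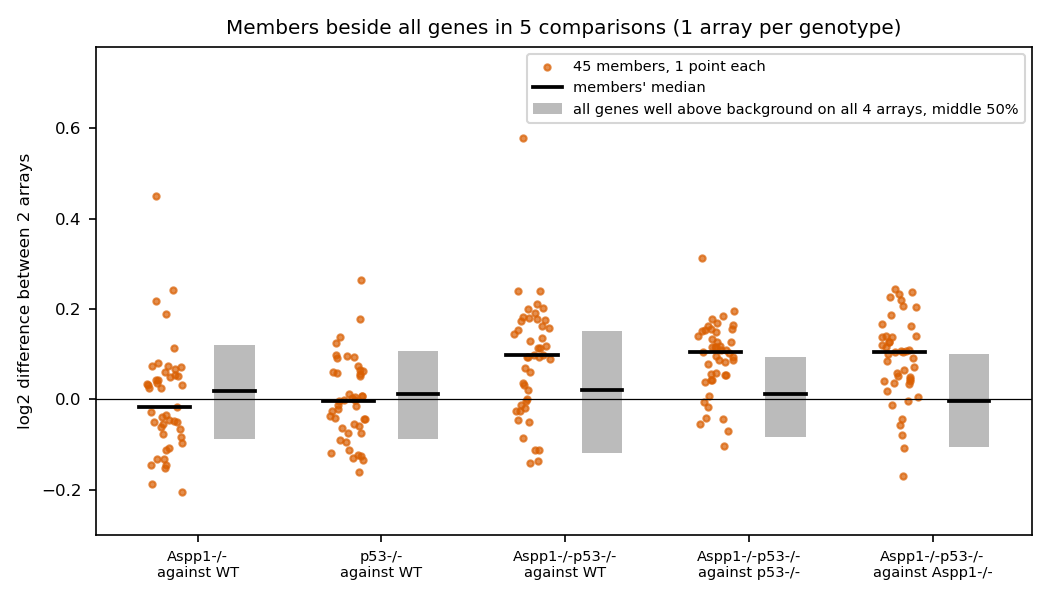
Log2 difference between 2 arrays (y axis) for the 45 G2/M and mitosis genes in the 5 comparisons (x axis). Each orange point is a gene, black lines are medians and grey bars span the middle 50% of all genes well above background on all 4 arrays. The members' median is −0.017 and −0.0024 in Aspp1-/- and p53-/- against WT, and lies between 0.098 and 0.11 in the 3 that involve Aspp1-/-p53-/-, and Pttg1 is the point farthest from the rest in 4 of the 5.

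Counted by array, 28 of the 45 genes had their highest level on the Aspp1-/-p53-/- array, where 30.6% of all genes had theirs. Another 10 were highest on WT, 4 on Aspp1-/- and 3 on p53-/-, where 26.5%, 24.7% and 18.1% of all genes were. The lowest level fell on WT for 16 genes, on Aspp1-/- for 15, on p53-/- for 12 and on Aspp1-/-p53-/- for 2. Shares of all genes were not computed for the lowest level, so these counts have no background. Counts of the highest and lowest array depend on the scaling and were not repeated with arrays scaled on their median. Under median scaling fewer than 28 of the 45 genes were above 0 in Aspp1-/-p53-/- against Aspp1-/-. Fewer than 28 can then be highest on Aspp1-/-p53-/-, and the highest array of a single gene can change as well. The distance from the lowest to the highest array had a median of 0.178 over the members and 0.212 over all genes well above background on all arrays. It ran from 0.0551 for Cdc25c to 0.263 for Kif11 and 0.578 for Pttg1.

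The granulocyte markers moved most on the same array. Their median was −1.51 in Aspp1-/-p53-/- against WT, −1.36 against p53-/- and −1.33 against Aspp1-/-. In each, 7 of 12 were lower by at least log2 1, as were 995, 1061 and 846 of all 23003 genes. The list was split, with 1, 1 and 4 of the 12 above 0 and Ctsg highest at 0.24, 0.064 and 0.36. The markers' median was −0.18 in Aspp1-/- against WT and −0.12 in p53-/- against WT. B-lineage markers (9 of 10 above background, Pax5 not) had a summed level of 24.4 on WT, 20.7 on Aspp1-/-, 27.9 on p53-/- and 25 on Aspp1-/-p53-/-. Megakaryocyte markers (8 of 8) had 67.5, 58.8, 49.0 and 43.1 in the same order, and monocyte and dendritic markers (9 of 9) had 254, 237, 236 and 252. The 7 erythroid markers well above background had a summed level between 7.58 and 8.43, and T and NK markers (6 of 9, without Cd3g, Cd8a and Ncr1) between 49.3 and 52.4. The part of these cells in the levels of the mitotic genes was not tested.

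**Figure D3:**
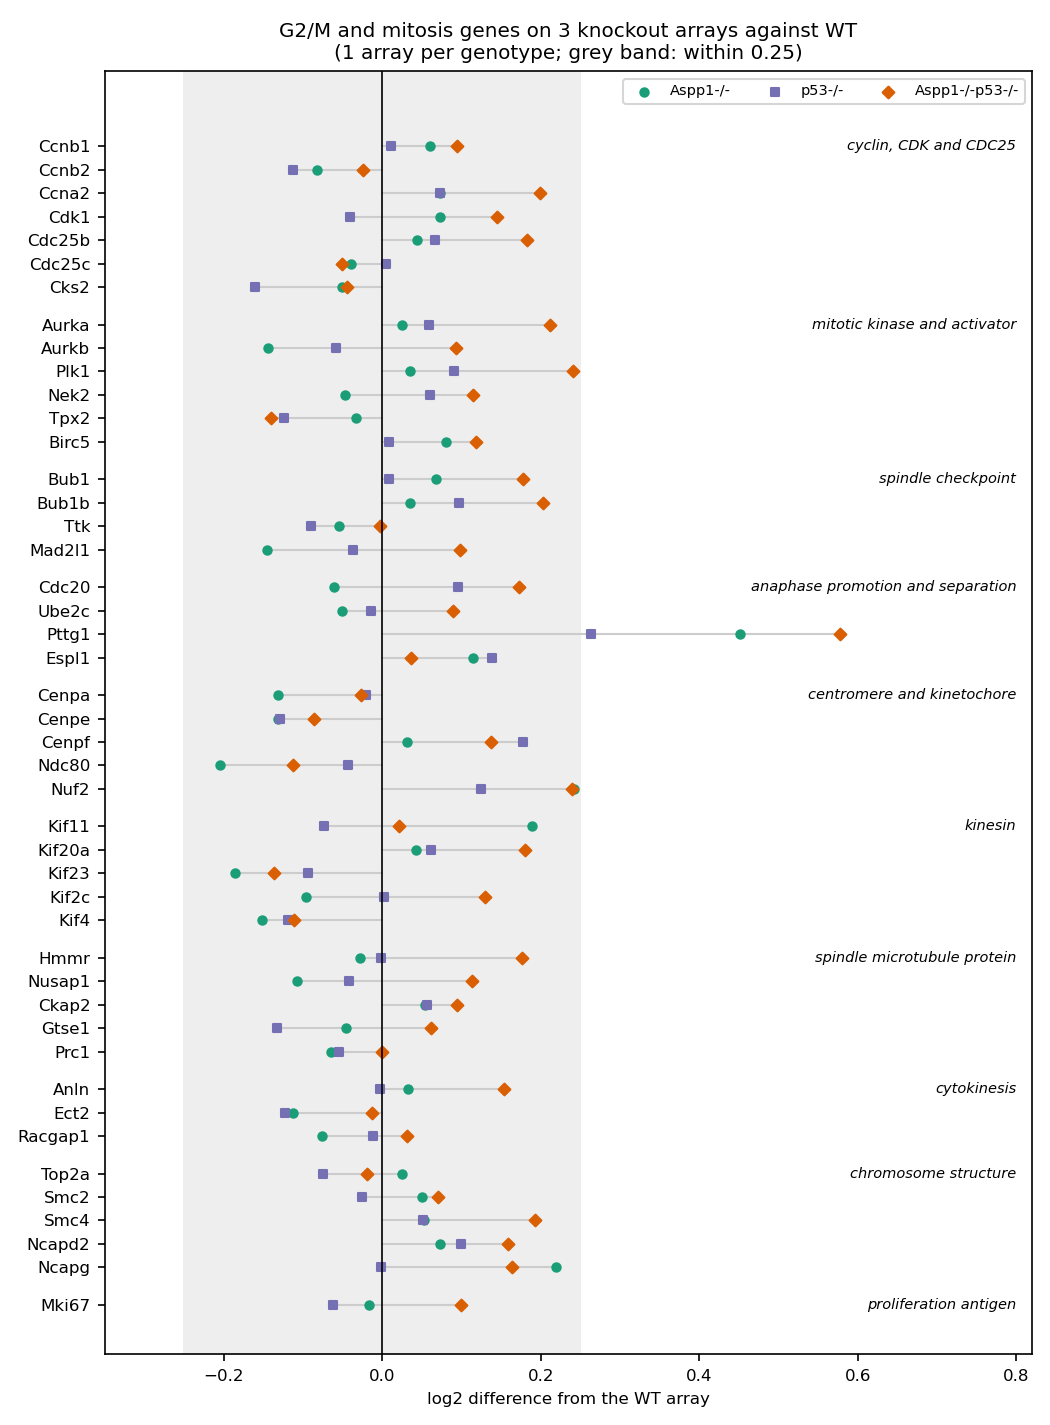
Log2 difference from the WT array (x axis) of each of the 45 genes (y axis, grouped by role) for the Aspp1-/- (green circles), p53-/- (purple squares) and Aspp1-/-p53-/- (orange diamonds) arrays, with 1 array per genotype. The grey band marks differences within 0.25, which hold every gene except Pttg1, whose 3 points lie at 0.45, 0.26 and 0.58.

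Of the whole list, 33, 38 and 38 of 45 genes were above 0 in Aspp1-/-p53-/- against WT, p53-/- and Aspp1-/-. Of all genes, 54.1%, 53.1% and 49.6% were. Counts by role are to be read beside these and hold with 75th percentile scaling. Under median scaling the whole list had fewer above 0 against Aspp1-/-. Among the cyclins, Cdk1 and its activators, 6 of 7 genes were above 0 in Aspp1-/-p53-/- against p53-/- and 4 of 7 against WT. Cdk1, the mitotic kinase itself, had levels of 2.30 on WT, 2.37 on Aspp1-/-, 2.26 on p53-/- and 2.44 on Aspp1-/-p53-/-. Its cyclin Ccnb1 read 3.13, 3.19, 3.14 and 3.23 in the same order, and Ccnb2 read 4.56, 4.48, 4.45 and 4.54. On the probes used, Cdk1 and Ccnb1 were thus highest on the Aspp1-/-p53-/- array, whereas Ccnb2 was highest on WT. The further probes of Ccnb1 were also highest there. Those of Cdk1, dimmer but well above background on every array, were both highest on Aspp1-/-. They were at −0.12 and −0.11 in Aspp1-/-p53-/- against Aspp1-/-, so the order of the arrays for Cdk1 depends on the probe. Ccna2, the cyclin of S phase and G2, read 3.70, 3.77, 3.77 and 3.90, and was 0.20 above WT on the last array. Cdc25b, the phosphatase that starts Cdk1 activation, read 1.99, 2.03, 2.06 and 2.17. Cdc25c, which acts later on the same residues, was the flattest of all members, at −0.61, −0.65, −0.61 and −0.66. Cks2, a small subunit that binds the kinase, read 2.08, 2.03, 1.92 and 2.03, lowest on p53-/-.

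The mitotic kinases and their partners were mostly higher on the Aspp1-/-p53-/- array, with 5 of 6 above 0 against each of the other arrays. Against p53-/- and Aspp1-/- this share is like that of the whole list. Plk1, which drives centrosome maturation and mitotic entry, read 3.99, 4.03, 4.08 and 4.23, a step of 0.24 from WT, 0.15 from p53-/- and 0.21 from Aspp1-/-. Aurka, the spindle pole kinase, read 3.44, 3.47, 3.50 and 3.65. Both were lowest on WT and highest on Aspp1-/-p53-/-. That difference exceeded the scanner error, as did that of Plk1 from Aspp1-/-, and the other differences of these genes did not. Aurkb, the kinase of the chromosomal passenger complex, read −2.02, −2.17, −2.08 and −1.93, lowest without Aspp1 alone. Birc5 (survivin), its partner in that complex, read 5.31, 5.39, 5.32 and 5.43. The further probes of Birc5 were at −0.08 and 0.16 in Aspp1-/-p53-/- against WT, where the probe used was at 0.12. Nek2, which separates the centrosomes, read 0.45, 0.40, 0.51 and 0.57. Tpx2 went the other way: this activator of Aurka read 2.41, 2.37, 2.28 and 2.27, lowest on the Aspp1-/-p53-/- array.

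All 4 spindle checkpoint genes were above 0 in Aspp1-/-p53-/- against p53-/- and against Aspp1-/-. Bub1, the kinetochore kinase that recruits the checkpoint, read 1.48, 1.55, 1.49 and 1.66. Bub1b, a subunit of the complex that restrains Cdc20, read 1.73, 1.77, 1.83 and 1.93. Ttk, the kinase at the top of the pathway, read −1.31, −1.36, −1.40 and −1.31. Mad2l1, which binds Cdc20 directly, read 3.45, 3.31, 3.42 and 3.55, and so was lowest on Aspp1-/- and highest on Aspp1-/-p53-/-, a difference of 0.24.

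Securin stood out among the genes of anaphase. Pttg1 read 4.08 on WT, 4.53 on Aspp1-/-, 4.35 on p53-/- and 4.66 on Aspp1-/-p53-/- (probe at mm9 chromosome 11, 43233801 to 43233860, minus strand), so the WT array was the lowest of the 4. The differences from WT were 0.45 (scanner error 0.204), 0.26 and 0.58, and Aspp1-/-p53-/- exceeded p53-/- by 0.31 and Aspp1-/- by 0.13. Espl1, the separase that securin holds, read 1.60, 1.72, 1.74 and 1.64. Cdc20, the activator of APC/C, read 4.42, 4.36, 4.51 and 4.59, and Ube2c, its ubiquitin-conjugating enzyme, read 3.36, 3.31, 3.34 and 3.45. Both were lowest on Aspp1-/- and highest on Aspp1-/-p53-/-.

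A second probe of Pttg1 did not show the difference. It lies 5′ of the probe used (chromosome 11, 43234562 to 43234621, minus strand, mm9) and gave signals of 112, 122, 106 and 113, well above background on each array. The probe used gave 8499, 12099, 10409 and 11848. Its differences from WT were 0.06, −0.10 and 0.10, and Aspp1-/-p53-/- exceeded p53-/- by 0.21. When both probes were averaged, Pttg1 was at 0.34 in Aspp1-/-p53-/- against WT in place of 0.58. In the additive model below, Pttg1 was the only member with an unadjusted p under 0.05.

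Of the 5 genes of the centromere and kinetochore, 2 were above 0 in Aspp1-/-p53-/- against WT and 2 against p53-/-, but 4 against Aspp1-/-. Ndc80 and Nuf2, partners in the complex that grips microtubules, lay apart. Ndc80 read 0.67, 0.46, 0.62 and 0.56, with WT highest, and Nuf2 read 1.08, 1.32, 1.2 and 1.32, with WT lowest. Cenpa, the histone that marks the centromere, read 2.65, 2.52, 2.63 and 2.62. Cenpe, a motor that moves chromosomes to the spindle equator, read 4.21, 4.08, 4.08 and 4.12, and Cenpf, a large kinetochore protein, read −2.89, −2.86, −2.71 and −2.75.

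The kinesins split as well. Kif20a, a motor of the central spindle, read 2.67, 2.71, 2.73 and 2.85, and Kif2c, which takes microtubule ends apart at the centromere, read −0.20, −0.29, −0.20 and −0.07. Both were highest on Aspp1-/-p53-/-. Kif23, the motor of centralspindlin, read 2.26, 2.07, 2.17 and 2.12, and Kif4, a chromosome-bound motor, read 0.76, 0.61, 0.64 and 0.65, each highest on WT. Kif11, which pushes the spindle poles apart, read 1.11, 1.30, 1.04 and 1.13, highest on Aspp1-/-, and was second to Pttg1 in spread.

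All 5 spindle microtubule proteins were above 0 in Aspp1-/-p53-/- against each other array, although Prc1 was at 0.00018 against WT. Hmmr, a spindle pole protein, read 2.27, 2.24, 2.27 and 2.44, and Nusap1, which bundles microtubules at chromosomes, read 3.14, 3.04, 3.1 and 3.26. Gtse1, a microtubule protein that also restrains p53 in G2, read 0.11, 0.06, −0.03 and 0.17. Ckap2 read 0.77, 0.83, 0.83 and 0.87, and Prc1, which crosslinks the central spindle, read 4.13, 4.06, 4.07 and 4.13. In Gtse1 the p53-/- array was the lowest and in Hmmr and Nusap1 the Aspp1-/- array was.

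All 3 genes of cytokinesis were above 0 against p53-/- and against Aspp1-/-. Anln, a scaffold of the contractile ring, read 2.89, 2.92, 2.89 and 3.05, highest on Aspp1-/-p53-/-. Ect2, which activates RhoA at the equator, read 2.38, 2.26, 2.25 and 2.36, and its partner Racgap1 read 2.65, 2.57, 2.64 and 2.68.

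Genes of chromosome structure were above 0 in 5 of 5 cases both in Aspp1-/- against WT and when Aspp1-/-p53-/- was set against p53-/-. In Aspp1-/- against WT, 22 of all 45 members and 54.5% of all genes were above 0. Top2a, the enzyme that untangles sister chromatids, read 3.78, 3.80, 3.70 and 3.76. The condensin core genes Smc2 and Smc4 read 3.48, 3.53, 3.45 and 3.55, and 4.49, 4.55, 4.54 and 4.69. Ncapd2, a condensin I subunit, read 5.51, 5.58, 5.61 and 5.67. Its partner Ncapg read −2.03, −1.81, −2.03 and −1.87, and so was higher on the 2 arrays without Aspp1. Mki67, which encodes the proliferation antigen Ki-67, read 5.95, 5.93, 5.89 and 6.05, a range of 0.16 between p53-/- and Aspp1-/-p53-/-.

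Further probes were on the array for 13 of the genes, and 16 of these 18 probes, from 12 genes, were well above background on all 4 arrays. Their sign was that of the probe used for 12 of 16 in Aspp1-/- against WT, 10 in p53-/- against WT, 13 in Aspp1-/-p53-/- against WT, 13 against p53-/- and 11 against Aspp1-/-. Mad2l1 differed between probes on the Aspp1-/- array. Its pair of further probes (mm9 chromosome 6, 66490355 to 66490414 and 66490067 to 66490126, plus strand) lay 5′ of the probe used (66490836 to 66490895). They were at −1.19 and −0.72 in Aspp1-/- against WT, where the probe used was at −0.15. On the other arrays they stayed within 0.29 of WT.

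Kif2c differed on another array. Its further probe (mm9 chromosome 4, 116832728 to 116832787, minus strand) gave signals of 229, 250, 512 and 321, or 1.13 in p53-/- and 0.59 in Aspp1-/-p53-/- against WT. The probe used, which lies close by (116832904 to 116832963), was at 0.0025 and 0.13. A further probe of Kif23 was at −0.32 in p53-/- and 0.40 in Aspp1-/-p53-/- against WT, where the probe used was at −0.09 and −0.14, so the sign of Kif23 depends on the probe. A further probe of Nuf2 (mm9 chromosome 1, 171428269 to 171428328, minus strand) was well above background on the Aspp1-/-p53-/- array only, with a signal of 63.7 against 13.0 on WT, 8.42 on Aspp1-/- and 13.1 on p53-/-. It was at least 5.24-fold higher than WT, whereas the probe used was 1.18-fold higher. The mean of this probe and the probe used was at −0.22 in Aspp1-/- against WT, where the probe used was at 0.24 and this probe was not well above background on either array. No annotation of this build was used, so exons and untranslated regions under these probes are not named.

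**Figure D4:**
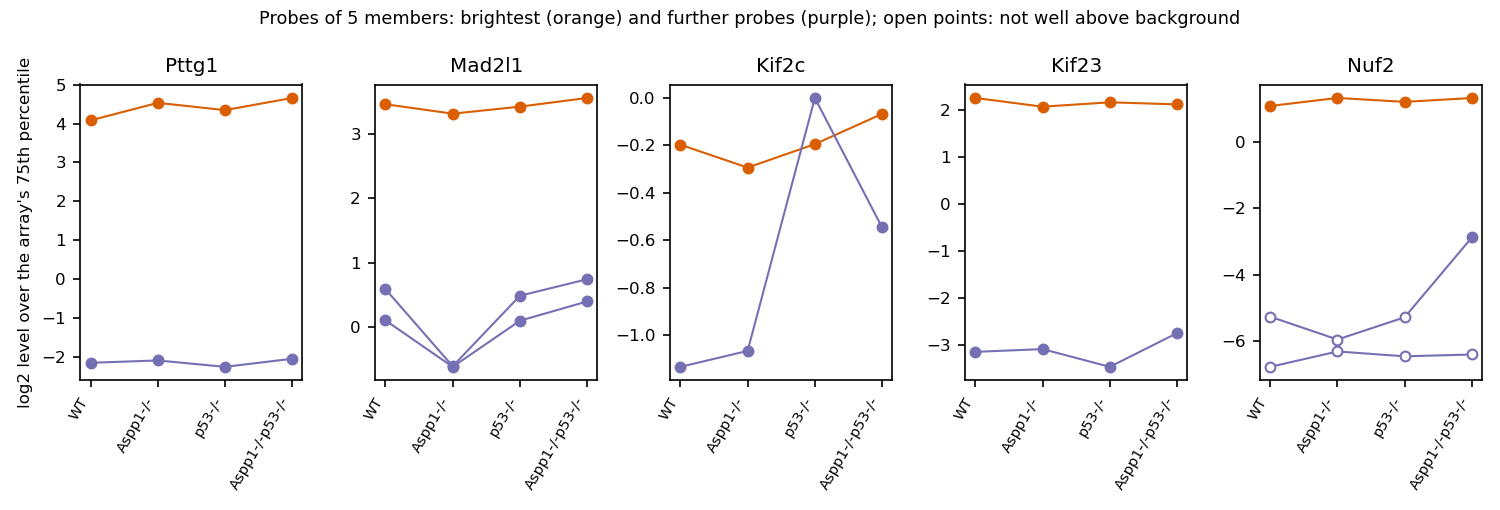
Log2 level over the array's 75th percentile (y axis) on the 4 arrays (x axis) for every probe of 5 genes, with the probe used in orange and further probes in purple. Filled points are well above background and open points are not, lines join the values of a probe, and levels of different probes are not comparable. The further probes of Mad2l1 dip on Aspp1-/- and that of Kif2c peaks on p53-/-, where the probes used stay nearly flat.

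An additive model of both losses over the 4 arrays (limma, 1 residual degree of freedom, Benjamini-Hochberg adjustment over all 23003 genes) called no gene, member or other, for either loss, or 0% of all genes. The lowest adjusted p among the members was 0.719 for Aspp1 loss and 0.657 for p53 loss. At an unadjusted p under 0.05, 1 of 45 members (Pttg1) was called for Aspp1 loss, where 4.69% of all genes were, and 0 of 45 for p53 loss, where 7.65% were. The residual degree of freedom is the non-additive part itself, and the adjusted model did not call the targeted Ppp1r13b and Trp53 either. It therefore cannot show that the members are unchanged.

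The design also allows the Aspp1 difference to be set with and without p53, on pairs that share no array. The difference of Aspp1-/-p53-/- from p53-/- less that of Aspp1-/- from WT was above 0 for 36 of 45 genes, where 46.9% of all genes were, with a median of 0.12 against −0.015 for all genes. It was largest for Aurkb at 0.30, Mad2l1 at 0.28 and Nusap1 at 0.26, each lower on Aspp1-/- than on WT and higher on Aspp1-/-p53-/- than on p53-/-. Espl1 at −0.22 was the lowest. Each such value carries the scanner errors of both its pairs, and their combined error was not computed. These errors were 0.22 and 0.23 for Aurkb, and 0.20 in each pair for Mad2l1 and Nusap1. Aurkb was also read by a dim probe, with signals of 117 to 124. With 1 array per genotype no residual degree of freedom is left, and this value has no test.

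Genes with and without a CHR were also read apart, without a test. In Aspp1-/- against WT the 29 genes with a CHR had a median of 0.025 and 15 above 0, and the 10 without had a median of −0.047 and 4 above 0. In p53-/- against WT the medians were −0.012 and −0.014. In Aspp1-/-p53-/- against p53-/- the median was 0.094 with a CHR, with 24 of 29 above 0, and 0.12 without, with 10 of 10 above 0. Against WT the medians were 0.095 and 0.11, and against Aspp1-/- they were 0.10 and 0.077.

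Other genes of cell division were read from lists beside the 45. Of all genes, 54.5% were above 0 in Aspp1-/- against WT and 53.4% in p53-/- against WT. In Aspp1-/-p53-/- against WT, p53-/- and Aspp1-/- these shares were 54.1%, 53.1% and 49.6%. Of 78 measured genes of mitosis outside the list, 51, 44, 59, 60 and 55 were above 0 in the same order. The 44 of 78 in p53-/- against WT (56.4%) are near the share of all genes. The medians of the 78 were 0.027, 0.0090, 0.082, 0.073 and 0.048, and none of them passed log2 1. Parpbp, a regulator of homologous recombination, was highest in Aspp1-/-p53-/- against WT at 0.90, and Ube2s, the ubiquitin-conjugating enzyme that extends chains for APC/C, was lowest against Aspp1-/- at −0.80. The 15 APC/C subunits had a median of 0.030 in Aspp1-/-p53-/- against p53-/- and 10 above 0, and 11 cohesin genes had 0.062 and 9. Of 13 other kinases and phosphatases of G2/M entry, 9 were above 0 in that comparison, with a median of 0.038. Wee1, the kinase that restrains Cdk1, was highest there at 0.24, and Chek1 was at least 2.11-fold lower on Aspp1-/-p53-/- than on Aspp1-/-, its probe being not well above background on the former.

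The regulators of the module were read as a list of their own. The 13 genes of DREAM, MuvB, B-Myb and FoxM1 had medians of 0.10, 0.025, 0.16, 0.036 and 0.036 in the 5 comparisons, in the order used above. Foxm1, the activator of G2/M genes, read 1.43, 1.48, 1.49 and 1.52, and Mybl2 (B-Myb) read 3.35, 3.57, 3.45 and 3.52. Both were chosen for their role after the values were seen. Tfdp1, the partner of E2F factors, was highest in Aspp1-/-p53-/- against WT at 0.36.

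The cell cycle genes of the preceding phase showed another order. Of 34 genes of G1/S and replication, 29 were above 0 in Aspp1-/- against WT and 24 in p53-/- against WT. In Aspp1-/-p53-/-, 29 were above 0 against WT and 28 against p53-/-, but 11 of 34 against Aspp1-/-. Of all genes, 54.5%, 53.4%, 54.1%, 53.1% and 49.6% were above 0 in the same order. The medians of the 34 were 0.12, 0.024, 0.10, 0.062 and −0.048. In the last comparison the G2/M and mitosis genes had 38 of 45 above 0 and a median of 0.10. No test compares the 2 lists, which hold different genes of the same arrays.

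Most cell cycle brakes linked to p53 were below their WT level on both arrays without p53. Their median was −0.078 in Aspp1-/- against WT, with 7 of 10 below 0, where 54.5% of all genes were above 0. Of these, 3 were lower by at least log2 0.25, which 24.3% of all genes passed in either direction. Of 10 measured, 8 were below 0 in p53-/- against WT (median −0.40), where 53.4% of all genes were above 0. In Aspp1-/-p53-/- against WT 8 were below 0 (median −0.48), where 54.1% of all genes were above 0. Of these 8, 3 were past log2 1, which 8.37% of all genes passed in either direction. The highest brake in p53-/- against WT was Gadd45a at 0.20, and in Aspp1-/-p53-/- against WT it was Gadd45g at 0.41. Both are stress-induced inhibitors of Cdk1. Cdkn1a, which encodes p21, read 2.33 on WT, 2.17 on Aspp1-/-, 1.60 on p53-/- and 0.80 on Aspp1-/-p53-/-, or −0.73 and −1.53 against WT on the last pair. Plk2, a stress-induced Polo-like kinase, read 1.90, 1.45, 1.15 and −0.16, and Btg2, an antiproliferative gene, read 4.82, 4.75, 4.36 and 3.45. Cdkn1a, Plk2 and Btg2 were lowest on the Aspp1-/-p53-/- array, where 28 of the 45 G2/M and mitosis genes were highest. The count of 28 is smaller under median scaling. On the p53-/- array, where Cdkn1a was 0.73 below WT, the median of the 45 against WT was −0.0024. Whether the brakes have a part in the levels of the 45 genes was not tested.

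**Figure D5:**
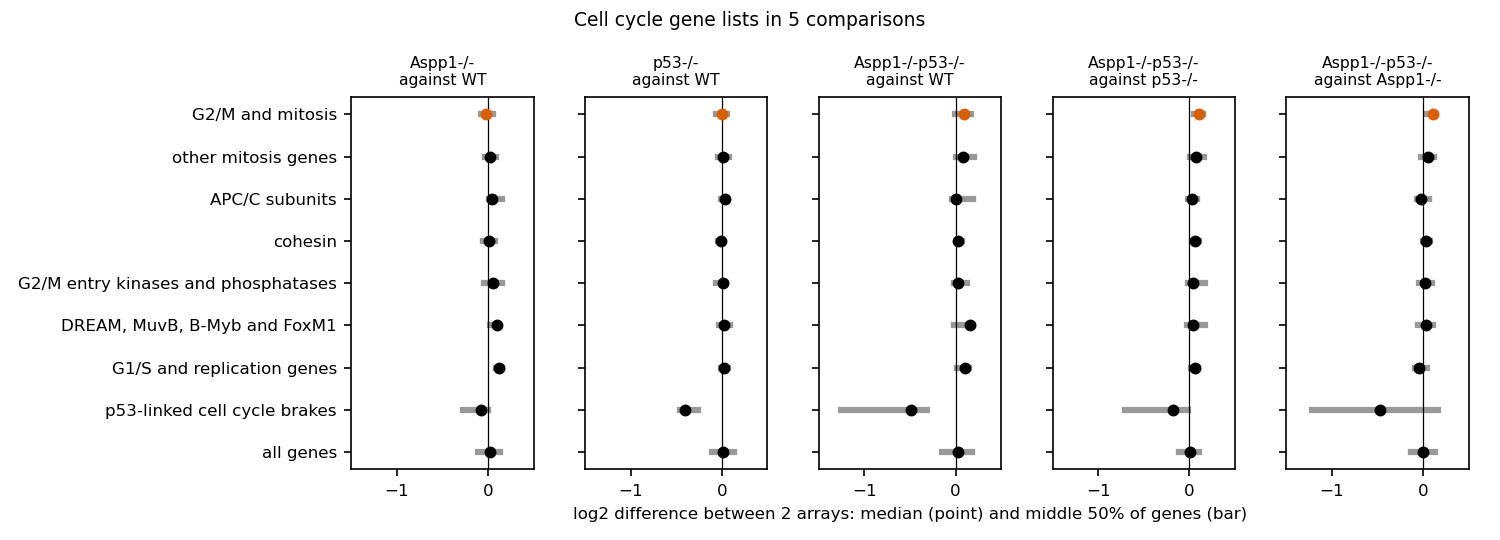
Median (points) and middle 50% of genes (bars) of the log2 difference between 2 arrays (x axis) for 8 cell cycle gene lists and all genes (y axis) in the 5 comparisons (panels). The G2/M and mitosis genes (orange) lie within 0.11 of 0 at the median in all panels, and the p53-linked brakes lie at −0.40 in p53-/- and −0.48 in Aspp1-/-p53-/- against WT.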

How the data were processed

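LSK cells of 4 genotypes were profiled on 4 Agilent arrays (design 28005), 1 per genotype. Per the file headers, the authors extracted spot intensity with Feature Extraction 10.7.3.1, probe positions being on mm9. Their deposited processed intensity has the background subtracted and a spatial trend removed, takes a surrogate for spots at background, and carries no scaling across arrays. Flags of 0 or 1 (other values) for bright, saturated and outlying spots, and the raw intensity, were deposited too. The authors' deposited value table holds log2 values, read here as log2 of the processed intensity with an offset for each array, centred on each probe's median over the arrays. Array differences from it and from the scanner files correlated with r = 1 over 26473 probes. The medians of its WT, Aspp1-/-, p53-/- and Aspp1-/-p53-/- columns were −0.0661, −0.0422, 0.0267 and 0.0478. How that offset was chosen is not stated in any source used.

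Control spots (3671 per array) and 120 to 172 outlier spots per array were dropped, replicate spots were averaged on the log2 scale, and log2 values were set relative to each array's 75th percentile (signals of 502, 523, 512 and 469 for WT, Aspp1-/-, p53-/- and Aspp1-/-p53-/-). Of 55681 probes, 26762 matched RefSeq by accession, which replaced the old symbol of 2878, and 3819 matched by symbol. The other 25100 had no RefSeq gene and counted as transcripts. A gene was its brightest probe, provided that 1 array or more read it well above background, which left 23003, of which 19124 were well above background on all arrays. A probe not above background gives a bound. Groups were taken from the sample labels. Some erythroid markers are not reported here.

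The 5 comparisons of 2 arrays have no test. The additive model used limma 3.58.1 in R 4.3.3, and was also run on simulated data. Those data were additive with p53 effects of at least log2 1, so they do not cover shifts as small as the members'. Motifs and counts used Python 3.11.15. Genes named with values on every array were the core mitotic regulators, the 3 highest and lowest in each comparison, and the largest of each role, to which the remaining members were added. Of other lists, the highest and lowest genes and those past log2 1 could be named. The members and lists were chosen with earlier results of these data known. The 6 alternatives were normexp background correction (offset 50), scaling on the median, quantile normalization, the mean of a gene's probes that were well above background on 1 array or more, probes well above background on all 4 arrays, and the authors' value table. Precision is limited by having 4 arrays.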

Additional observations from a re-analysis of the deposited data

Results flagged for a closer look

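The median of the 45 genes differed between the Aspp1 comparisons with and without p53. Against WT the Aspp1-/- array gave −0.017, and against p53-/- the Aspp1-/-p53-/- array gave 0.11, and the median over genes of the difference of these differences was 0.12. This difference was not tested, since 1 array per genotype leaves no residual degree of freedom, and the 2 pairs differ in slide row and Mx1-Cre as well as in p53.

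Probes that the comparisons did not use differed from WT by at least log2 1 for 3 genes, where the probes used did not. A further probe of Mad2l1 was at −1.19 in Aspp1-/- against WT, against −0.15 for the probe used, and another further probe was at −0.72. The further probe of Kif2c was at 1.13 in p53-/- against WT, against 0.0025 for the probe used. A further probe of Nuf2, well above background on the Aspp1-/-p53-/- array alone, was at 2.39 or more against WT, against 0.24 for the probe used. No cause of these differences between probes was tested.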

How the results depend on the processing

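Each of the 144 counts and medians under the 6 alternatives was set against its main value: 126 stayed within 1.5 times (counts) or within 0.0651, the spread between spots of a probe (medians), and 18 moved. The filter on dim probes could not change the members' values, since all 45 were well above background on all 4 arrays. The authors' value table holds the same scanner values with an offset for each array. These alternatives therefore add little to the number that stayed, for medians, counts and single members alike. The limit of 0.0651 is also wide beside members' medians of at most 0.11. Of 36 medians, 1 took the other sign, that of Aspp1-/- against WT with arrays scaled on their median (0.0052 in place of −0.017). The number of members above 0 stayed close to the main count under normexp background correction, quantile normalization, the mean of probes, the filter on dim probes and the authors' value table. With median scaling, 4 of 45 were above 0 in p53-/- against WT, and the median was −0.13. The median in Aspp1-/-p53-/- against Aspp1-/- was then 0.022, and members past log2 0.25 numbered 2 in Aspp1-/- against WT, 3 in p53-/- against WT, 2 in Aspp1-/-p53-/- against p53-/- and 1 against Aspp1-/-. The median of all genes moved with this scaling, and the members' median less that of all genes was the same under both (−0.016, 0.095 and 0.11 for p53-/- against WT, then for Aspp1-/-p53-/- against p53-/- and Aspp1-/-). With normexp the members' median in Aspp1-/-p53-/- against WT exceeded that of all genes by 0.042 in place of 0.076, and 2 members passed log2 0.25 against WT on the Aspp1-/- array and 2 on the Aspp1-/-p53-/- array. Quantile normalization gave 2 past log2 0.25 in Aspp1-/-p53-/- against Aspp1-/-.

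With the mean of a gene's probes, members past log2 0.25 numbered 2 in Aspp1-/- against WT, 2 in p53-/- against WT, and 3 when Aspp1-/-p53-/- was set against each of WT, p53-/- and Aspp1-/-. Past log2 1 there was 1 in each of the last 3, Nuf2, whose mean includes a probe well above background on 1 array. Of 1350 values of single members, 1338 stayed within the scanner error of the difference and 12 moved, all with the mean of probes and all of Mad2l1, Pttg1, Nuf2, Kif23 or Kif2c. A further tally found 68 of the 1350 with the other sign than the main value. No paired analysis was possible because each genotype has 1 array, and for the same reason no replicate could be left out. Signals over background limited no member on the probe used.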

Other observations

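In Aspp1-/-p53-/- against WT, 12 of 78 genes of mitosis outside the 45 (15.4%) were higher by at least log2 0.25, as were 18.5% of all genes and 13.5% of those well above background on all 4 arrays, so this share is near that of all genes. Of the 12, 8 were lowest on WT and highest on Aspp1-/-p53-/-. The rule that picked the 12 already sets Aspp1-/-p53-/- above WT, so it favours this order. How many of all genes passing the rule share this order was not computed, so the 8 have no background. Of these 8, 4 are given as examples, chosen after their values were seen. Kpna2, a nuclear import receptor, read 4.79 on WT, 4.91 on Aspp1-/-, 4.97 on p53-/- and 5.35 on Aspp1-/-p53-/-. Ccnf, the cyclin of an SCF ubiquitin ligase, read 2.82, 2.92, 2.98 and 3.23 in the same order. Oip5, which helps to load Cenpa at centromeres, read −0.04, 0.13, 0.28 and 0.44, and the spindle motor Kif15 read −0.23, −0.06, −0.03 and 0.23.

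Other genes differed between the arrays by Aspp1 or by p53 genotype. Ncapg2, a condensin II subunit, read 1.99 on WT and 1.90 on p53-/-, against 2.47 on Aspp1-/- and 2.53 on Aspp1-/-p53-/-. Ncapg, its counterpart in condensin I, was likewise higher on both arrays without Aspp1, by 0.22 and 0.17 within its pairs. Kif14, a motor of cytokinesis, read −2.21 on WT and −2.26 on Aspp1-/-, against −1.56 on p53-/- and −1.67 on Aspp1-/-p53-/-. Slide row and Mx1-Cre cannot be told apart from p53 for Kif14. Cep55, a midbody protein, was higher on the Aspp1-/-p53-/- array alone, at −0.82, −0.71, −0.96 and −0.28. These genes were also chosen after their values were seen, and none has a test.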
